A study of Mus musculus with 11 samples.

Results

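Cytosolic ribosomal proteins are the protein components of the translating ribosome, and 48 of their genes were followed across lymphomas of E-mu-BRD2 mice. A member was any gene read by a probe set with 1 gene symbol that is Rpl or Rps followed by a digit, Rplp0, Rplp1, Rplp2 or Rpsa, without Rps6k kinases and pseudogenes. For each gene the probe set with the highest mean over the 11 arrays was used. These are 48 of the 12393 genes that the array reads with a probe set of 1 gene symbol, and 100 such probe sets belong to them. Of the members, 20 code for small subunit proteins, 20 for large subunit proteins, 2 for the stalk and 6 for paralogues of ribosomal proteins. A further 30 symbols that fit the pattern were read only by probe sets with several symbols and are no members. Among them were Rpl5, Rplp1, Rpl3 and Rpl10.

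The tumours were B cell lymphomas that arose sporadically in mice carrying BRD2, a bromodomain protein that binds acetylated histones, as a transgene under the immunoglobulin heavy chain enhancer, which acts in B cells. All animals were transgenic on the FVB background, and the immunoglobulin clonality of every tumour was given as oligoclonal. There were 5 transitional and 6 marginal lymphomas, classes of disease severity, with 1 array each. The remaining severity class and the normal B cells named by the design were not analysed here. Failure to nest was recorded for all 5 transitional lymphomas and for marginal 2 and 3, while marginal 1, 4 and 5 had a neck, leg or haunch tumour and marginal 6 was paralysed. Spleens were graded severe in transitional 1 and 2, mild in transitional 3 and moderately severe in transitional 4 and 5. Of the marginal lymphomas, number 1 had a spleen of the grade marginal, 2, 3 and 4 were mild, and 5 and 6 moderate. Flow cytometry was recorded only for marginal 6, as B220+, CD5+ and CD11b+. Ages and the tissue that gave the RNA were not given in the sources used here.

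A ribosome joins a small subunit, which reads the messenger RNA, to a large subunit, which forms the peptide bond. Each subunit needs most of its proteins in equal numbers, and ribosomal protein genes are transcribed together with ribosomal RNA when cells grow. Their messenger RNAs begin with a run of pyrimidines, through which the kinase mTOR controls their translation, and MYC, a driver of B cell lymphoma, raises the output of the whole system.

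All values below are MAS5 signals, array intensities on a linear scale that the authors deposited. A difference sets transitional against marginal as log2(signal + 16), transitional minus marginal, so that 1 unit is a doubling. The scaling of MAS5 gave every array the same trimmed mean, 500.2, so a change of most transcripts in the same direction would not show. Signals of different probe sets do not rank transcripts, so each member is compared only with itself across arrays. The labels do not say that samples of a class came from separate animals, so p-values measure the spread between these samples.

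The B cell label was checked with 11 markers on the array, such as Cd79a and Ms4a1. Their summed signal ran from 7949 to 77460 in transitional and from 30252 to 102238 in marginal lymphomas. All 11 had a lower mean in transitional lymphomas, with a median difference of −1.13 log2 units, and 0 passed at an adjusted p of 0.05 (3 at an unadjusted p of 0.05, limma). Without transitional 4 and 5, 8 of 11 were lower and the median was −0.09. With an erythroid score (the mean log2 level of erythroid markers) as a further term all 11 were lower, the median was −1.67 and 7 passed. The sum was lowest on transitional 5 (7949) and transitional 4 (11357). Those 2 arrays also held the 2 highest erythroid sums, 90675 and 108503 over 9 markers. Mouse Brd2 had a signal of 2445 ± 478 in transitional (SD, n = 5) and 2900 ± 574 in marginal lymphomas (SD, n = 6), a difference of −0.24 (SE 0.19, limma adjusted p = 0.999).

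The members were put into 3 sets by brightness and role. Proteins of the ribosome proper made up 34 bright members with a mean signal over 10000, each at or above the 99.1th percentile of all probe sets, and 8 dim members with means from 332 to 2311. The dim members were Rpl12, Rpl14, Rpl27a, Rpl37, Rpl39, Rps6, Rps25 and Rps27. For 8 of these 8 the array also held a brighter probe set that listed the gene beside other symbols, so the dim probe set was not the brightest one listing that gene. The third set was the 6 paralogues, of which Rpl22l1, Rps27l and Rpl7l1 were tested and Rpl3l, Rpl39l and Rps4l were too dim. Rpl22l1 had a mean of 13487 but, as a paralogue, was not counted among the bright members. The threshold of 10000 was chosen after the values were seen, and no ribosome proper member lay between 2311 and 14647. Whether spots this bright were saturated was not tested.

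The bright members moved together from array to array, and the shift did not separate the classes. Relative to each gene's mean over the 11 arrays, the median of the 34 bright members was 0.09, 0.16, 0.38, −0.32 and −0.33 log2 units on transitional 1 to 5. On marginal 1 to 6 it was −0.40, −0.02, −0.11, 0.41, 0.11 and 0.10. Transitional 3 and marginal 4 were thus high and transitional 4, transitional 5 and marginal 1 low, with both classes spanning nearly the same range.

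The shift ran through nearly every bright gene. On transitional 3 and on marginal 4, 34 of 34 bright members lay above their own mean. On transitional 4, transitional 5 and marginal 1, 0 of 34 did. The lowest array was 1 of these last 3 for 33 of the 34 genes, and the highest was transitional 3 or marginal 4, likewise for 33. The highest array exceeded the lowest by 1.54-fold for Rpl6, the narrowest, by 1.85-fold for the median bright member and by 5.69-fold for Rpl22, the widest.

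**Figure D1:**
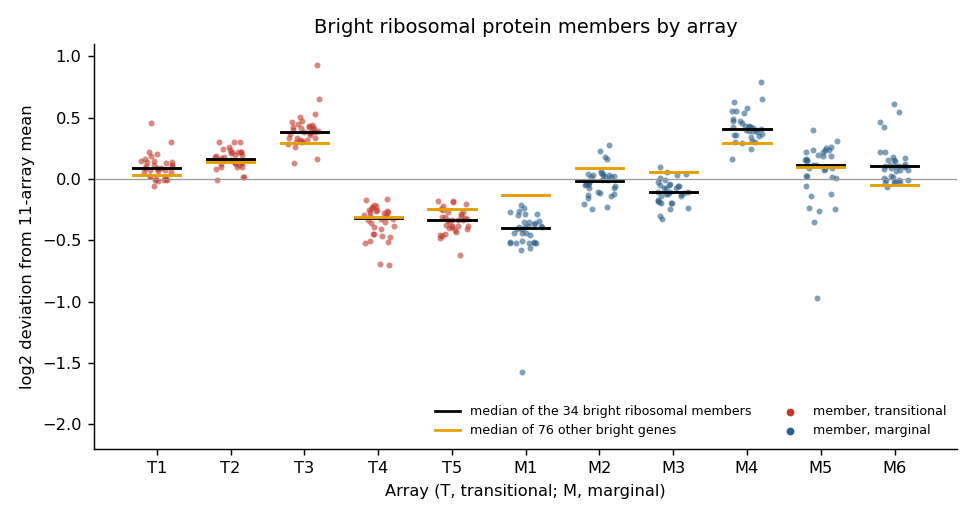
Each point is 1 of the 34 bright members on 1 array, as the log2 deviation from that gene's mean over the 11 arrays (vertical axis), with red for transitional (T1 to T5) and blue for marginal lymphomas (M1 to M6). The black bar is the median of the members, lowest on M1 at −0.40 and highest on M4 at 0.41, and the orange bar is the median of 76 other bright genes.

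Rplp0, the core of the stalk that recruits elongation factors, showed the pattern. Its signal was 27592, 32176, 33242, 23059 and 21711 on transitional 1 to 5, against 23052, 27539, 26633, 36730, 29384 and 27245 on marginal 1 to 6. The groups overlapped, with transitional 4, transitional 5 and marginal 1 at the low end. Rps19, a small subunit protein whose loss causes Diamond-Blackfan anaemia in people, had 25899, 25336, 34840, 18653 and 20266 on the transitional arrays, against 17239, 28501, 24852, 32823, 24503 and 35179 on the marginal arrays. Its highest reading was on marginal 6 rather than marginal 4. Rpl6, a large subunit protein, varied least of the tested members, between 17982 and 24543 in transitional and between 18580 and 27754 in marginal lymphomas.

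Small and large subunit genes shifted by nearly the same amount. The median deviation of the 17 bright small subunit genes and that of the 15 bright large subunit genes differed by at most 0.05 log2 units on any array. On transitional 4 the medians were −0.31 for small and −0.35 for large subunit genes, and on marginal 1 they were −0.40 and −0.44.

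Once the array median was subtracted, little spread was left in the bright members. Their median SD over the 11 arrays was 0.30 log2 units before and 0.11 after the subtraction. For 76 other genes with a mean over 10000 the SD was 0.42 before and 0.41 after subtraction of their own array median. For all 13576 tested probe sets it was 0.49 before and 0.48 after. The 76 genes included Fau, a ribosomal protein gene outside the rule, and translation genes such as Eef1a1 and Eef2. They also held cell type markers of wide range, such as Ms4a1 (2812 to 24757 over the arrays) and Car2 (1159 to 25814). They are thus no matched control without ribosomal genes. These SDs are descriptions, and points on an array share its scaling. Probe sets that list a ribosomal protein beside other symbols gave the same picture, with 0.30 before and 0.11 after for the 72 bright ones. Their array medians ran from −0.35 on transitional 4 to 0.39 on transitional 3, and from −0.46 on marginal 1 to 0.41 on marginal 4.

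The other bright genes shifted in the same sense on most arrays. Their median was 0.03, 0.14, 0.29, −0.31 and −0.24 on transitional 1 to 5 and −0.13, 0.09, 0.05, 0.29, 0.10 and −0.05 on marginal 1 to 6. On marginal 1 the ribosomal median of −0.40 lay further below 0 than the −0.13 of the other bright genes. Fau, whose product carries the small subunit protein S30 but whose symbol the rule does not catch, read 24858, 25971, 29724, 16676 and 16012 on the transitional and 19109, 24799, 21944, 34968, 22826 and 23859 on the marginal arrays. Fau belonged to these other bright genes, and it was lowest on transitional 5 and highest on marginal 4.

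Erythroid and granulocyte precursor markers were high, and B cell markers low, on the arrays where the ribosomal level was low. Erythroid markers (9 of 14 on the array) summed to 3091, 11416, 10496, 108503 and 90675 on transitional 1 to 5 and to 68696, 61025, 80099, 30886, 29571 and 29676 on marginal 1 to 6. Granulocyte precursor markers (10 of 10) summed to 8899, 43278, 43810, 163328 and 98607 on the transitional and to 211961, 77877, 154456, 20963, 20339 and 11030 on the marginal arrays. The 3 arrays with the lowest ribosomal median were among the 4 with the highest erythroid sum and the 4 with the highest granulocyte sum. Marginal 3, with a ribosomal median of −0.11, was also among both. B cell markers had their 3 lowest sums on transitional 5 (7949), transitional 4 (11357) and marginal 1 (30252). Their highest sum, 102238, was on marginal 4, where the ribosomal median was highest. Macrophage, T cell and NK cell markers reached their highest sums on transitional 2 (41230), transitional 1 (25817) and transitional 2 (9926), arrays with a bright median above 0. Of the erythroid markers 1 stayed below the array median on every array, and of the granulocyte markers 0 did. The part of these markers, B cell markers included, in the ribosomal shift was not tested. In such bulk RNA, fewer cells of a type and less RNA per cell cannot be told apart.

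**Figure D2:**
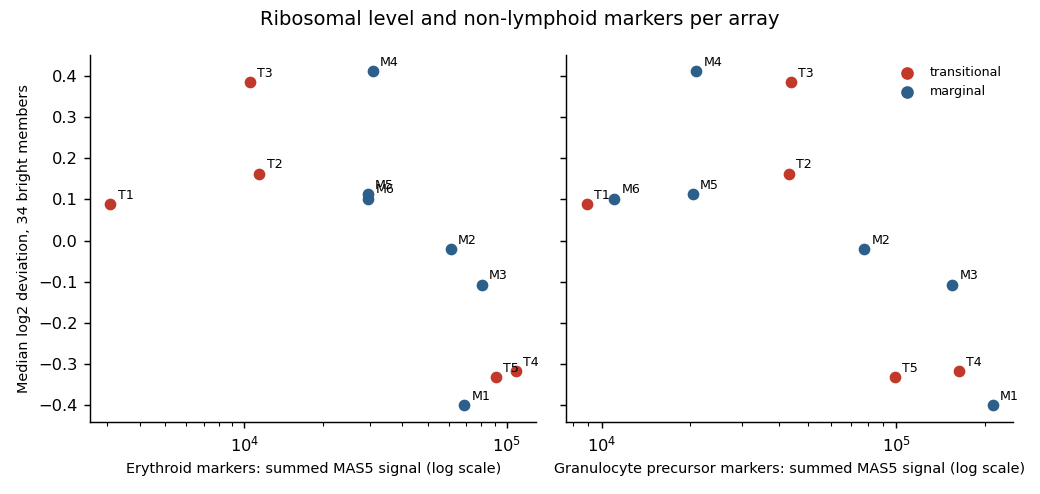
Each point is 1 array, red for transitional and blue for marginal lymphomas, with the summed MAS5 signal of erythroid markers (left, log axis) or granulocyte precursor markers (right, log axis) against the median log2 deviation of the 34 bright members. T4, T5 and M1, at −0.32, −0.33 and −0.40, lie at the high end of both marker axes.

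The ratio of 5-prime to 3-prime beta-actin signal ran from 0.69 to 0.90 in transitional and from 0.75 to 0.90 in marginal lymphomas. It was highest on transitional 4, at 0.903, and was 0.883 on transitional 5 and 0.882 on marginal 1. Marginal 3 gave 0.896 and marginal 4, where the ribosomal median was highest, 0.882. Transitional 3, with the next highest ribosomal median, had the lowest ratio, 0.694. The same ratio for Gapdh was highest on transitional 5, at 1.57, and was 1.42 on transitional 4 and 1.44 on marginal 1. On transitional 3 it was 1.39 and on marginal 4 1.45. The Gapdh ratio was lowest on marginal 5, at 1.19, where the beta-actin ratio was 0.750. The part of RNA quality in the ribosomal shift was not tested.

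Ribosomal protein gene starts were read from RefSeq to show the pyrimidine run that defines this class of messenger RNA. RefSeq start regions of GRCm38.p6 matched 42 of the 48 members. A run of at least 7 letters C or T on the transcribed strand touched the window from 10 bases before to 20 bases after the start in 26 of 42 members (61.9%), against 7501 of 27025 genes with a start region (27.8%). The same run on the other strand, read as A or G, touched it in 5 of 42 members (11.9%) and in 31.3% of all genes. CCGGAAG, a core of ETS factor sites, stood on either strand within the 300 bases around the start in 21 of 42 members (50.0%) and in 9.93% of all genes. Read on the opposite strand it is CTTCCGG, which can overlap a pyrimidine run. A match is a description of letters and not a bound site.

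Of the 30-base windows below, the first are those of the 4 tested members with the narrowest spread over arrays. Then come the windows of 4 members whose probe sets departed from the rest, and of Rpl27a, which had the smallest p between classes. Each runs 5′ to 3′ with its longest run of 5 or more C or T in capitals (the first where runs tie).
Rpl6, chr5:121204491-121204520, plus strand: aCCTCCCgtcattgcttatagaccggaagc
Rpl7a, chr2:26910797-26910826, plus strand: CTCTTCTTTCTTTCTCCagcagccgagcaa
Rps2, chr17:24720053-24720082, plus strand: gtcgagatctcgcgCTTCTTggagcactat
Rplp0, chr5:115559457-115559486, plus strand: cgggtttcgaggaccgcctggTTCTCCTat
Rpl22, chr4:152325716-152325745, plus strand: cctgggaaaagcaatagctggccgatcgtt
Rpl22, chr4:152324426-152324455, plus strand: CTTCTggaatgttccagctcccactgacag
Rpl22l1, chr3:28805498-28805527, plus strand: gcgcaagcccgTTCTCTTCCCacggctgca
Rps27l, chr9:66946076-66946105, plus strand: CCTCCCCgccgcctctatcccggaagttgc
Rpl37, chr15:5116603-5116632, plus strand: cctgggcggaagcttatccacaggaagtgg
Rpl27a, chr7:109519185-109519214, plus strand: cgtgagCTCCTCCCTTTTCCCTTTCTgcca

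The run was 17 letters long in Rpl7a but only 6 in Rpl6 and Rps2 and 7 in Rplp0, so these steady members did not share a long run in this window. It was 10 in Rpl22l1, 7 in Rps27l and 20 in Rpl27a, while Rpl37 and the first Rpl22 window held none of 5 or more and the longest in the second Rpl22 window was 5. RefSeq lists a second start for Rps27l, and RefSeq starts need not be those used in these tumours.

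The first comparison asked whether transitional lymphomas differ from marginal ones, 2 of the severity classes of the design, in ribosomal protein transcripts. No member passed the limma test at an adjusted p of 0.05, of 45 tested (0% of all 13576 probe sets passed). At an unadjusted p of 0.05 no member passed either, against 3.29% of all probe sets, and no member had groups that did not overlap, against 0.243% of all. Of the 45, 18 had a higher and 27 a lower mean in transitional lymphomas (of all tested probe sets 42.7% were higher and 57.3% lower). Their median difference was −0.04 log2 units, against −0.05 for all tested probe sets. The 95% interval of a member's difference had a median half-width of 0.42, so changes within that size cannot be told from no change here.

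This split depended on the arrays and the scaling. Without transitional 4 and 5, 43 of 45 members lay above 0, the median being 0.19, and 34 of 34 bright members did. Of all 13576 probe sets 7107 lay above 0 in that fit, with a median of 0.02. On those 2 arrays 0 of 34 bright members exceeded their own mean, while marginal 1, as low, stayed in. Leaving them out could thus only raise the bright members, which move together, so these counts are not separate results. Once the erythroid score entered the fit, 5 of 45 were higher, with a median of −0.16. In that fit 371 of 13576 probe sets passed at an adjusted p of 0.05, none of them a member's. Median scaling moved the median of all tested probe sets by 0.12, and 38 of 45 members were then higher, with a median of 0.09 against 0.06 for all. Quantile normalization gave 21 of 45 and a median of −0.0035. Weights per array gave 42 of 45, with a median of 0.12 against −0.01 for all. Among animals that failed to nest 32 of 45 were higher, with a median of 0.06 against −0.04 for all. Leaving out single arrays gave medians between −0.13, without transitional 3, and 0.06, without transitional 5, and counts of higher members between 6 of 45, without marginal 1, and 36 of 45, without transitional 4. In none of these settings did a member pass at an adjusted p of 0.05. At an unadjusted p of 0.05, 3 of 45 members passed with the erythroid score (2990 of 13576 probe sets did). With quantile normalization 2 passed (411 of 13576 probe sets), and with weights per array 1 (849 of 13576).

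**Figure D3:**
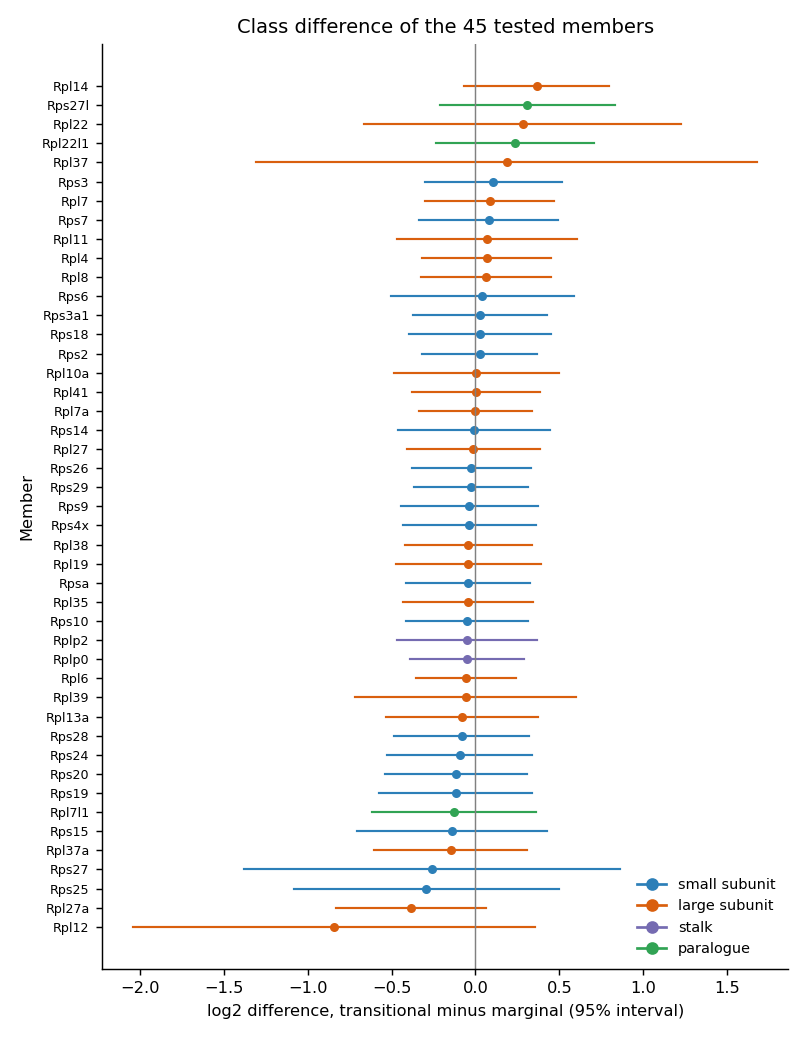
The log2 difference of transitional minus marginal lymphomas is drawn for each of the 45 tested members, with its 95% interval from limma, coloured by subunit. Every interval crosses 0, and the widest intervals belong to the dim members Rpl37, Rpl12 and Rps27 and to Rpl22.

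Among the large subunit genes 10 were higher and 10 lower in transitional lymphomas, with a median of −0.01. Rpl4, whose protein lines the exit tunnel, differed by 0.07 (SE 0.18) and Rpl7 by 0.09 (SE 0.18). Further Rpl7 probe sets gave 0.15 and 0.24. Rpl11, which binds the p53 regulator Mdm2 when ribosome assembly stalls, had a signal of 17310 ± 5558 in transitional (SD, n = 5) and 16405 ± 4831 in marginal lymphomas (SD, n = 6), a difference of 0.07 (SE 0.25). Rpl7a differed by 0.0002 (SE 0.15) and Rpl39, at a dim probe set, by −0.06 (SE 0.30). Rpl37a lay at −0.15 (SE 0.21), the lowest of the bright members. Its sign turned without transitional 4 and 5, at 0.13.

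Of the 20 small subunit genes 6 were higher and 14 lower, with a median of −0.04. Rps3, at the entry of the messenger RNA channel, differed by 0.11 (SE 0.19) and Rps7 by 0.08 (SE 0.19). A second Rps7 probe set, with a mean of 27098, gave 0.26. On the other side were Rps15 at −0.14 (SE 0.26), Rps19 at −0.12 (SE 0.21) and Rps20 at −0.12 (SE 0.19). Rpsa, the laminin receptor protein of the small subunit, had a signal of 30196 ± 6199 in transitional (SD, n = 5) and 31020 ± 5660 in marginal lymphomas (SD, n = 6). Rps14 differed by −0.01 (SE 0.21), Rps2 by 0.03 (SE 0.16) and Rps9 by −0.04 (SE 0.19). Every one of these members' differences, at the probe set used, was smaller than its standard error.

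The stalk genes were as close. Rplp0 differed by −0.05 (SE 0.16), and Rplp2, which hangs on Rplp0 and contacts elongation factors, by −0.05 (SE 0.19). Rps6, the target of S6 kinase downstream of mTOR, differed by 0.04 (SE 0.25) at its dim probe set.

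The 3 members with the smallest p were dim probe sets of the large subunit genes Rpl27a, Rpl14 and Rpl12. Rpl27a had 733, 563, 644, 416 and 757 on the transitional arrays, against 592.1, 828.9, 746.1, 1067.5, 815.1 and 823.1 on the marginal arrays. Readings over 740 were found on every marginal array but marginal 1 and on no transitional array but transitional 5. The difference was −0.38 (SE 0.21, limma unadjusted p = 0.0864, adjusted p = 0.999), and −0.25 without transitional 4. Rpl14 had 320, 344, 485, 426 and 391 on transitional 1 to 5, against 290, 314, 223, 264, 295 and 446 on marginal 1 to 6, where only marginal 6 exceeded 320. Its difference was 0.36 (SE 0.20, limma unadjusted p = 0.0910, adjusted p = 0.999).

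Rpl12, a protein at the base of the stalk, had 463, 678, 846, 143 and 224 on the transitional arrays, against 430, 396, 624, 415, 1212 and 2342 on the marginal arrays. Transitional 4 and 5 were lowest and marginal 6 highest. The difference of −0.84 (SE 0.55) did not pass, and without marginal 6 it was −0.50. Rps25 and Rps27 also had their highest reading on marginal 6, at 1906 and 822, and their lowest on transitional 4, at 346 and 77.3. On marginal 6, 8 of 8 dim members lay above their own mean, where the bright median was only 0.10.

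At its dim probe set, Rpl37 varied most of all tested members, with an SD of 1.23 log2 units over the arrays. A probe set listing Rpl37 beside other symbols was brighter, with a mean of 25616. No bright ribosomal probe set of that kind had an SD over 0.62. Its probe set read 4229, 3541, 5428, 442 and 572 in transitional lymphomas, against 826, 1145, 998, 3068, 1833 and 3341 in marginal ones. Transitional 1, 2 and 3 were the highest of all arrays and transitional 4 and 5 the lowest, so the class difference was 0.19 with an SE of 0.69. Relative to the bright median Rpl37 lay at −1.60 log2 units on transitional 4 and at 1.27 on transitional 3.

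Rpl22 was the bright gene that departed most from the rest. Its product is a large subunit protein that binds RNA and whose loss in mice speeds T cell lymphoma. The signal was 17909, 15580, 24809, 8040 and 11529 in transitional lymphomas, against 4362, 15793, 13927, 22590, 6657 and 19919 in marginal ones. After subtraction of the bright median it lay at −1.18 on marginal 1 and −1.08 on marginal 5 and between −0.38 and 0.54 elsewhere. Marginal 5 was also the array with the lowest 5-prime to 3-prime Gapdh ratio, 1.19. The part of RNA quality in this low Rpl22 reading was not tested. The class difference was 0.28 (SE 0.43), smaller than the spread within either class. A second, dimmer Rpl22 probe set was lowest on transitional 4, at 417, and read 633 on marginal 1 and 526 on marginal 5. Its class difference was −0.37, so the probe sets of this gene disagreed in sign.

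Rpl22l1 codes for a paralogue that can replace Rpl22 in the ribosome. It read 16121, 17617, 13762, 10316 and 15164 on the transitional arrays, against 7071, 13613, 11539, 14396, 12712 and 16049 on the marginal arrays. Marginal 1 was lowest for both paralogues, while on marginal 5 only Rpl22 was low. The class difference of Rpl22l1 was 0.24 (SE 0.22), and without marginal 1 it was 0.08.

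Rps27l, a paralogue of Rps27 that p53 induces, did not follow the bright members. Its signal was 4204, 5397, 5130, 6079 and 8212 on transitional 1 to 5, against 4203, 4082, 6281, 4331, 2901 and 6675 on marginal 1 to 6. Transitional 5, among the lowest for the bright members, was its highest array, and its residual there was 1.04. On marginal 4, the highest for the bright members, the residual was −0.63. The class difference was 0.31 (SE 0.24), and 2 further probe sets gave 0.33 and 0.41. Without transitional 5 or marginal 5 it was 0.18. Rps27 itself, at a dim probe set, differed by −0.26 (SE 0.51).

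Of the remaining paralogues, Rpl7l1 was tested and Rpl3l, Rpl39l and Rps4l lay below the filter. Rpl7l1, a nucleolar relative of Rpl7, differed by −0.13 (SE 0.22), and its second probe set by 0.12. Rpl3l, found mainly in muscle, read 246 on transitional 2 and between 5.0 and 37.5 on the marginal arrays. Stromal markers were also highest on transitional 2, with a summed signal of 6710 against at most 495 on any other array. The part of those cells in the Rpl3l signal was not tested. Rpl39l, a testis form of Rpl39, stayed at or below 75.3 and Rps4l at or below 8.5.

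**Figure D4:**
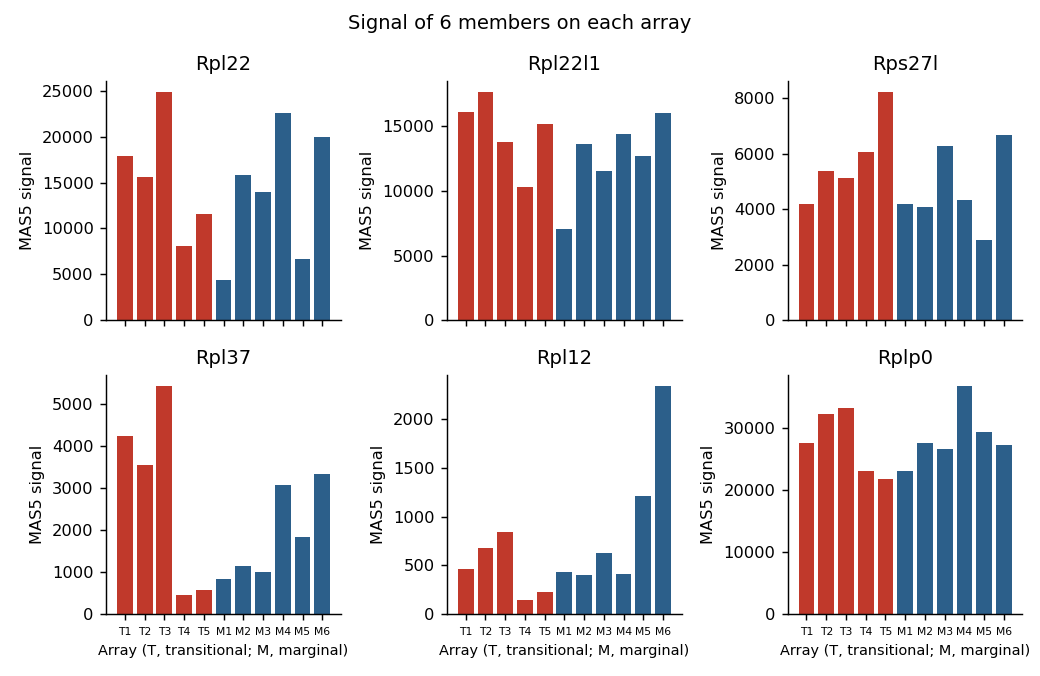
Bars give the MAS5 signal of 6 members on each array, red for transitional (T1 to T5) and blue for marginal lymphomas (M1 to M6), with each axis starting at 0. Rplp0 stands for the bright members, and the other 5 depart from them, Rpl37 and Rpl12 at dim probe sets. Rpl22 was lowest on M1 (4362) and M5 (6657), Rps27l highest on T5 (8212), and Rpl37 lowest on T4 (442) and T5 (572).

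The second comparison followed spleen enlargement, ranked from 1 (marginal) to 5 (severe). No member passed at an adjusted p of 0.05, as for all probe sets (0%). The median slope over the 45 members was 0.0005 log2 units per grade, against −0.01 for all, with 23 slopes above and 22 below 0 (45.4% of all were above and 54.6% below 0). With median scaling 41 of 45 lay above 0, and with the erythroid score in the fit 3. Without transitional 4 and 5, where the bright members were low, it was 43. Single arrays moved the count as well, to 4 of 45 without marginal 1 (median −0.07) and to 39 of 45 without marginal 4 (median 0.03). The bright median did not follow grade in order. It was −0.40 in the marginal spleen grade, between −0.11 and 0.41 in mild, 0.10 and 0.11 in moderate, −0.33 and −0.32 in moderately severe, and 0.09 and 0.16 in severe.

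Rpl22l1 was the 1 member of 45 with an unadjusted p under 0.05 for grade, where 2.17% of all probe sets had one. Its slope was 0.17 per grade (SE 0.07, limma unadjusted p = 0.0436, adjusted p = 0.9997). Severe spleens gave 16121 and 17617, the marginal spleen grade 7071. Without marginal 1 the slope was 0.08. Next were Rps27 at −0.19 (SE 0.20) and Rpl27a at −0.08 (SE 0.09), then Rpl14 and Rps27l at 0.07 each (SE 0.09 and 0.10). With single arrays left out these slopes ran from −0.26 to −0.09 for Rps27, −0.15 to −0.04 for Rpl27a, 0.04 to 0.11 for Rpl14 and 0.03 to 0.14 for Rps27l.

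Genes that build ribosomes were set beside the proteins they assemble. No tested gene of the lists for polymerase I, snoRNPs, subunit assembly, TOP messenger RNAs (those with the pyrimidine start) and their regulators passed at an adjusted p of 0.05, in either comparison. The polymerase I list covered transcription of ribosomal RNA genes and held Myc, Tcof1, Nolc1 and Mybbp1a besides polymerase subunits and their factors. In class medians, polymerase I genes lay at −0.14 (3 of 16 higher), snoRNP genes at 0.01 (5 of 9), small subunit assembly factors at 0.04 (19 of 29) and large subunit assembly factors at 0.07 (23 of 38). The other TOP messenger RNAs, mostly of translation factors, lay at 0.03 (10 of 15), and regulators of TOP translation at −0.01 (7 of 14). Of all tested probe sets 42.7% were higher. The splits of these lists hung on single arrays and on the scaling. Without marginal 1, 11 of 29 small subunit factors and 17 of 38 large subunit factors were higher, and without marginal 6 the counts were 25 and 31. Median scaling gave 26 and 35, and 7 of 16 polymerase I genes. Without transitional 4 and 5, 10 of 16 polymerase I genes were higher, with a median of 0.13. Quantile normalization turned the median of the other TOP messenger RNAs to −0.01.

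Single genes of these lists led without passing. Ttf1, which terminates polymerase I transcription, had a signal of 177 ± 9.08 in transitional (SD, n = 5) and 254 ± 41.6 in marginal lymphomas (SD, n = 6), a difference of −0.47 (SE 0.17, limma unadjusted p = 0.0183, adjusted p = 0.999). Only marginal 3, at 179, fell within the transitional range of 168 to 192. Rrn3, the initiation factor of polymerase I, differed by 0.35 (SE 0.19). Brix1, a large subunit assembly factor, had 2160 ± 394 in transitional (SD, n = 5) and 1582 ± 623 in marginal lymphomas (SD, n = 6), a difference of 0.51 (SE 0.25). Noc4l, counted in the large subunit list although it acts in small subunit assembly, differed by 0.25 (SE 0.18). Hnrnpa1, an RNA-binding protein with a TOP start, differed by 0.42 (SE 0.19, limma unadjusted p = 0.0495, adjusted p = 0.999) and Eef1d by 0.19 (SE 0.14). Bysl and Pwp2 of the small subunit pathway lay at 0.31 (SE 0.22) and −0.28 (SE 0.18). The snoRNP genes Nhp2 and Ruvbl2 lay at 0.30 (SE 0.18) and 0.29 (SE 0.19), and the mTOR inhibitors Tsc1 and Tsc2 at −0.48 (SE 0.30) and −0.33 (SE 0.25).

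By spleen grade the assembly factors mostly had slopes above 0, without passing. The slope was above 0 for 26 of 29 small subunit factors and 33 of 38 large subunit factors, against 45.4% of all probe sets. The median slope was 0.08 in either list. Without marginal 1 the counts were 22 of 29 and 24 of 38, with medians of 0.03 and 0.04. Genes of a list can move together over the arrays, so these counts are not separate results. Their list scores were lowest on marginal 1 (−0.35 and −0.43) and highest on marginal 6 (0.46 and 0.56), and lay between −0.25 and 0.22 on the transitional arrays. The slope for nucleolin, Ncl, was 0.14 (SE 0.06, limma unadjusted p = 0.0397) and that for Rsl1d1 0.24 (SE 0.11). No test of the difference between these lists and the ribosomal proteins was made.

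**Figure D5:**
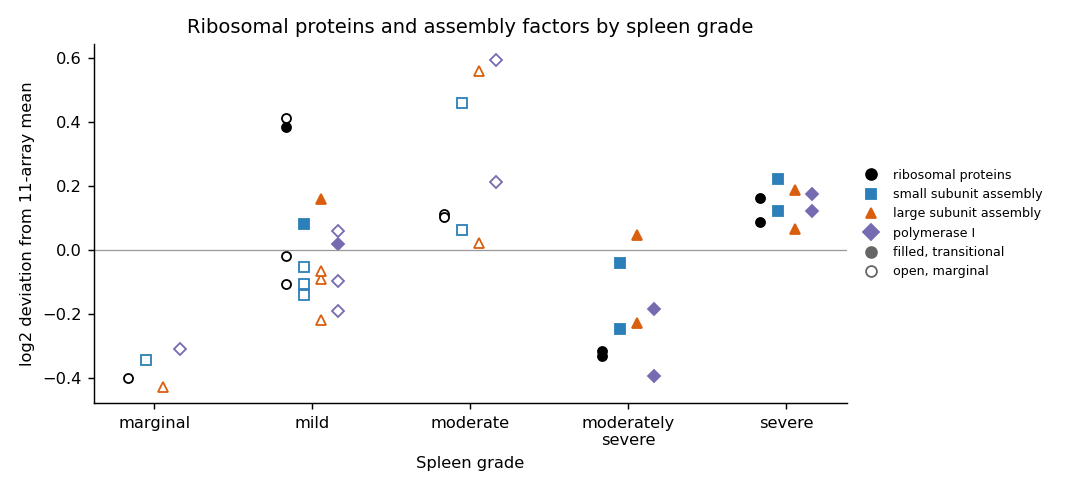
Spleen grade runs along the horizontal axis, and each symbol is 1 array's log2 deviation from the 11-array mean for ribosomal proteins (median of the 34 bright members) or for a list of assembly or polymerase I genes (mean of the list). Filled symbols are transitional and open symbols marginal lymphomas. Ribosomal proteins lie at −0.33 and −0.32 in the moderately severe grade and at 0.09 and 0.16 in the severe grade.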

How the data were processed

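RNA was hybridised to expression arrays, 1 for each of 5 transitional and 6 marginal lymphomas. The intensities are MAS5 signals deposited by the authors, per the submitters' processing notes, on a linear scale and scaled per array. No version of MAS5 is named there. The labels' protocols state poly-dT-primed cDNA and biotin-labelled cRNA. Of 22690 probe sets, 64 controls were left out, 16 was added before log2, and the upper 60% by mean of the other 22626 were tested (13576). Probe sets were named with the platform table of GEO, whose Entrez identifiers were looked up in RefSeq (GRCm38.p6) for current symbols. Of 22626, 20380 had 1 gene symbol, 691 several and 1555 none.

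Fits used limma 3.58.1 in R 4.3.3 (lmFit, eBayes with intensity trend, two-sided, Benjamini-Hochberg over all tested probe sets) and were tested on simulated data. The 45 of 48 members above the filter entered. Deviations and residuals are descriptions. Named were the 8 members of smallest p in each direction between classes, 5 in each direction for grade, the 8 widest and 5 narrowest in spread, paralogue pairs, members fixed by role, and the 2 genes of smallest p per list. The members, lists and alternatives were chosen with earlier results of these data known. The number of arrays limits precision. A comparison of the arrays found 0 identical pairs. The files and labels used here record no batch.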

Additional observations from a re-analysis of the deposited data

Results flagged for a closer look

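Among 66 sets of values (32 named members and the bright median, each in either class), 1 held an array far from the others, where chance gives about 1 in 20. It was Rpl7l1 on transitional 4, with a log2 signal of 9.65 (788 as a signal), while the other transitional arrays read 1200 to 1375. Its second probe set read 1164 there, within the range of 1136 to 1338 of the transitional arrays.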

How the results depend on the processing

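No member passed at an adjusted p of 0.05 in either comparison under any alternative run. Leaving out 1 array at a time gave class medians of −0.13 to 0.06 and grade medians of −0.07 to 0.03. Of the named members' values under alternatives, 569 kept their direction and 45 turned, none of them past the threshold, and the cause was not tested. The class difference turned for Rpl22 (−0.043) and Rps20 (0.045) with the mean of all probe sets, and for Rpl22 (−0.032) and Rpl7l1 (0.15) among animals that failed to nest. It turned with array weights for Rpl37a (0.049), Rpl7l1 (0.044), Rps15 (0.096), Rps20 (0.0015) and Rps25 (0.044). Without transitional 4 and 5 it turned for Rpl37a (0.13), Rpl7l1 (0.011), Rps15 (0.25), Rps19 (0.099), Rps20 (0.063) and Rps25 (0.038). With the erythroid covariate it turned for Rpl4 (−0.048), Rpl7 (−0.039) and Rps7 (−0.025), and with median scaling for Rps19 (0.0068) and Rps20 (0.010). The grade slope turned with array weights for Rpl12 (0.011) and Rps9 (0.00064), and without transitional 4 and 5 for Rpl12 (0.095), Rps19 (0.025) and Rps9 (0.025). With class as a covariate it turned for Rpl12 (0.23), Rpl14 (−0.053), Rpl27a (0.055), Rps19 (0.0033) and Rps27l (−0.023). It turned with the erythroid covariate for Rpl22 (−0.031) and Rpl7 (−0.0084), and with median scaling for Rps19 (0.0014) and Rps9 (0.0038). With single arrays left out, the class difference ran from −0.0077 to 0.49 for Rpl22, −0.021 to 0.15 for Rpl4, −0.012 to 0.18 for Rpl7, −0.23 to 0.0036 for Rpl7l1, −0.27 to 0.015 for Rps15, −0.23 to 0.0051 for Rps20 and −0.022 to 0.20 for Rps7. The grade slope ran from −0.14 to 0.16 for Rpl22 and from −0.016 to 0.080 for Rpl7.

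Samples of the classes share numbers in the labels, but same-numbered arrays deviated against each other (correlations of −0.45 to −0.09) and no array correlated best with its own number. With the number as a replicate block 0 members passed and the class median was −0.02. Added after seeing the data, the probe sets that list several symbols gave a class median of −0.0094 over 97, and the bright members alone −0.03. Further probe sets with only a member's symbol kept that member's direction in 18 of 25 with a mean over 10000. Of the dimmer tested ones 9 of 17 did. Rpl3l, Rpl39l and Rps4l lay below the filter on dim probe sets, and without that filter 0 of 48 members passed in either comparison (0 at an unadjusted p of 0.05).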
